A study of Mus musculus with 6 samples.

Results

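The mouse mitochondrial genome carries 7 genes for subunits of respiratory complex I: mt-Nd1, mt-Nd2, mt-Nd3, mt-Nd4, mt-Nd4l, mt-Nd5 and mt-Nd6. They were taken by name from the authors' comparison table, which lists 5 of them, and mt-Nd3 and mt-Nd4l were looked up by Ensembl identifier among the 46078 genes of the count table. RNA was sequenced from cells washed off the colon of mice aged 2 months, with 3 libraries from wild type mice and 3 from Lingo3-/- mice. The Lingo3 protein spans the membrane and belongs to a small family named for its leucine-rich repeats. The labels give no strain, sex, allele construction or driver for the mutant, and name no treatment. They do not say whether each library came from a separate animal, so p-values measure only the spread between these libraries, which may be technical. The wash is labelled as EDTA plus DTT for wild type replicate 1 and as EDTA alone for the other 5 libraries, while the protocol text common to all 6 names both reagents.

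Complex I takes electrons from NADH, passes them to ubiquinone and pumps protons across the inner mitochondrial membrane. The subunits encoded in mitochondrial DNA form the core of its membrane arm, while the electron-carrying subunits of the matrix arm and all accessory subunits are encoded in the nucleus. Mitochondrial DNA is transcribed from both strands into long precursor RNAs, which are cut, mostly at tRNAs, into mRNAs and rRNAs. Cells of the colon surface depend on mitochondrial respiration to burn butyrate made by gut bacteria.

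Counts over genes ran from 25010618 to 28029583 in the wild type libraries and from 11868000 to 17200931 in the Lingo3-/- libraries, so the mutant libraries were the shallower ones. Mitochondrial genes took 46.8% ± 1.60 (SD, n = 3) of the gene counts of wild type libraries, against 35.5% ± 0.823 (SD, n = 3) in mutants. Reads without a unique alignment made 36.7% ± 0.184 (SD, n = 3) and 32.6% ± 0.309 (SD, n = 3) of all reads. Lingo3 itself had 0 to 3 counts per library in both genotypes, so its level does not check the labels. The 12 epithelial markers were all detected.

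Only 5 of the 7 genes had enough counts to be tested, and the sequences of the others have near-identical copies in the nuclear genome. On chromosome 1 of GRCm38, at chr1:24611535-24616197 on the minus strand, the GENCODE M21 annotation holds 7 unprocessed pseudogenes that copy a stretch of mitochondrial DNA. The pseudogene Gm28438 matches mt-Nd3 at 344 of 345 bases, and the exception is T3C, with mt-Nd3 as the reference and positions counted from 1 at its 5′ end. The first 90 bases of each are shown, from chrM:9459-9548 on the plus strand and chr1:24613030-24613119 on the minus strand, because base 3, in capitals, is all that separates the aligned copies.

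mt-Nd3: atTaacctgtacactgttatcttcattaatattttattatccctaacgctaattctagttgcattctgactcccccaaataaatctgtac
Gm28438: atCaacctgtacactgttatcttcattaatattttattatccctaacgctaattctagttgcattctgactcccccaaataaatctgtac

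The pseudogene Gm10222, at chr1:24612407-24612700 on the minus strand, matches mt-Nd4l at 294 of 294 bases. The whole of mt-Nd4l, at chrM:9877-10173 on the plus strand, is shown beside it because a read from inside it has 2 identical places to align. Its last 7 bases, in capitals, are also the first 7 bases of mt-Nd4, and the capitals in Gm10222 mark the part of that overlap that it holds.

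mt-Nd4l: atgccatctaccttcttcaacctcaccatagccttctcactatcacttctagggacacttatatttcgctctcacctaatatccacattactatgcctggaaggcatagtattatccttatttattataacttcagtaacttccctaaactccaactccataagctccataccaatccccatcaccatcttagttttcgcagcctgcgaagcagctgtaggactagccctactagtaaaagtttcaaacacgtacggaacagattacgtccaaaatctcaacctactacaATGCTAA
Gm10222: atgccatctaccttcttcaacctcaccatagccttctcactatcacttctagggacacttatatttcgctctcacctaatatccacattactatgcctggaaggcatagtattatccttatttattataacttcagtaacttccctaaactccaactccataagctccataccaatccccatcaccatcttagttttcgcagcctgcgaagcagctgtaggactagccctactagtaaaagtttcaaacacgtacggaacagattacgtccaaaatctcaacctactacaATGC

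The copied stretch ends inside mt-Nd4. The pseudogene Gm28439, at chr1:24611535-24612410 on the minus strand, is identical to mt-Nd4 over bases 1 to 876, and the remaining 502 bases of mt-Nd4 lie beyond it. The junction, at chrM:11013-11072 on the plus strand, is shown with the bases held by Gm28439 in lower case and those beyond it in capitals.

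mt-Nd4 junction: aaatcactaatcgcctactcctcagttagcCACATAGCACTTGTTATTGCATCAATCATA

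mt-Nd6 is the only member read from the other strand, and its end overlaps the end of mt-Nd5 by 14 bases. The last 60 bases of each are shown, from chrM:13506-13565 on the plus strand and chrM:13552-13611 on the minus strand, with the overlap in capitals. The sequence of the mt-Nd6 mRNA is poor in C, at 5.97%, and rich in G, at 28.1%, whereas G makes at most 11.6% of any other member.

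mt-Nd5 end: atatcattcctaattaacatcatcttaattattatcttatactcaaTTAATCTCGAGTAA
mt-Nd6 end: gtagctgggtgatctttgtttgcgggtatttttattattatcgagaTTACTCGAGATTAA

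mt-Nd3 (chrM:9459-9806) had 0, 0 and 0 counts in wild type replicates 1 to 3 and 2, 2 and 0 in Lingo3-/- replicates 1 to 3. mt-Nd4l had 0 counts in all 6 libraries. The 3 counts taken as the floor of measurement correspond to 0.113 to 0.240 CPM (reads per TMM-corrected library total) in a library, and this floor covers counting error only. Of the windows of 100 bases along each gene, 97.6% of those of mt-Nd3 and 98.5% of those of mt-Nd4l occur letter for letter, on either strand, in an annotated nuclear transcript. The count table leaves out reads without a unique alignment, and the part of the copies in these low counts was not tested. For both genes neither a level nor a genotype difference was measured, and the low counts do not show that the RNA is absent. The read length is not given in the sources used here, and copies outside annotated transcripts were not searched.

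The same windows were counted for all 13 mitochondrial mRNAs. The share was 60.8% for mt-Nd4, 3.19% for mt-Nd2, and 0 for mt-Nd1, mt-Nd5 and mt-Nd6. Among the mRNAs for other complexes, mt-Co2, mt-Co3 and mt-Atp6 had shares of 99.5%, 99.9% and 99.5%, and together with mt-Nd3 and mt-Nd4l they were counted at under 2 CPM per kb in wild type. The share was 30.8% for mt-Co1 and 0 for mt-Cytb. mt-Atp8 had a share of 0 and also 0 counts in every library. It starts between mt-Co2 and mt-Atp6 and overlaps the start of mt-Atp6. Both of these are copied in the stretch on chromosome 1, as Gm28661 and Gm10925. The windows were searched in annotated transcripts only, so the share of 0 does not show that mt-Atp8 has no nuclear copy.

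**Figure D1:**
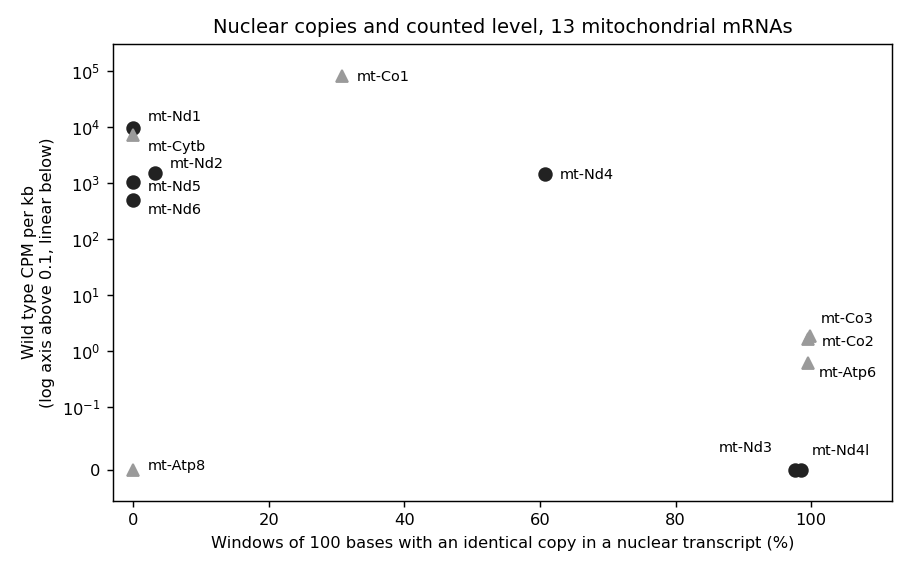
Level in wild type (mean of 3 libraries, CPM per kb of gene length, on an axis that is logarithmic above 0.1 and linear below) against the share of windows of 100 bases that occur in an annotated nuclear transcript. Circles are complex I genes and triangles are other mitochondrial mRNAs. The 5 genes with shares of 97.6% or more sit at the bottom right, and mt-Nd4 keeps a high level at 60.8%. mt-Atp8 is at 0 on both axes, and copies outside annotated transcripts were not searched.

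Gm28438 drew 1890 counts over the 6 libraries, against 4 for mt-Nd3. Its level was 18.05, 16.1 and 13.2 CPM in wild type and 12.2, 15.4 and 19.4 CPM in Lingo3-/-. The groups overlapped, and its log2 fold change was -0.02 ± 0.17 (SE; edgeR quasi-likelihood test, Benjamini-Hochberg adjusted p = 0.949). Reads counted to Gm28438 and to mt-Nd3 are uncertain in origin, since the sequences are near-identical. Gm10222 had 49 counts in all and Gm28439 had 14. Gm13339 on chromosome 2, which is 96.7% identical to part of mt-Nd2, had 66 counts, against 167505 for mt-Nd2. Copies of mRNAs for other complexes did fall: Gm13340 and Gm29216, of mt-Co1, by 0.79 and 0.66 on the log2 scale, and Gm13341, of mt-Co2, by 0.83 (edgeR adjusted p = 0.00299, 0.0368 and 0.0156). Gm28661, Gm28437 and Gm10925 were lower without passing (edgeR adjusted p = 0.129, 0.0707 and 0.228).

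Among the 5 measured members, mt-Nd1 was the most abundant per length and mt-Nd6 the least. In wild type the level was 9569 ± 1396 CPM per kb for mt-Nd1, 1493 ± 234 for mt-Nd2, 1465 ± 318 for mt-Nd4, 1046 ± 146 for mt-Nd5 and 506 ± 36.4 for mt-Nd6 (SD, n = 3). Neighbours in this order did not overlap between libraries, except mt-Nd2 and mt-Nd4, whose wild type ranges overlapped. In Lingo3-/- the levels were 6825 ± 466, 1096 ± 38.5, 928 ± 64.1, 621 ± 87.8 and 269 ± 5.08 CPM per kb in the same order (SD, n = 3). Counted only over the bases outside copied windows, mt-Nd4 came to 4021 ± 874 CPM per kb and mt-Nd2 to 1704 ± 268 in wild type (SD, n = 3), so the order of this pair depends on the length used. The complex I mRNAs stood well below mt-Co1, the catalytic subunit of cytochrome c oxidase, at 81902 CPM per kb in wild type.

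All 5 measured complex I transcripts were lower in every Lingo3-/- library than in any wild type library, and the fall passed the test for mt-Nd4, mt-Nd5 and mt-Nd6. With TMM scaling and edgeR's quasi-likelihood test, 3 of the 5 tested members fell at an adjusted p under 0.05, where 5.97% of the 16856 tested genes fell. None of the 5 was higher, at an unadjusted p under 0.05 either, and DESeq2 called none higher. Groups that do not overlap, with Lingo3-/- lower, occurred in 16.0% of tested genes. The median log2 fold change was -0.66 over the 5 members and -0.03 over all tested genes. The filter on low counts did not decide which of these 5 entered, since the smallest count of any of them in any library was 1738.

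mt-Nd1 (ENSMUSG00000064341, chrM:2751-3707, plus strand) encodes the subunit at the foot of the membrane arm, next to the site where ubiquinone binds. Its level was 9999, 9856 and 7617 CPM in wild type replicates 1 to 3 and 6184, 7035 and 6375 CPM in Lingo3-/- replicates 1 to 3. The groups did not overlap, and the lowest wild type value, that of replicate 3, lay closer to the highest mutant value than to the other wild type values. The log2 fold change was -0.49 ± 0.17 (SE), with a mutant mean at 71.3% of wild type, and it missed the threshold (edgeR adjusted p = 0.0729).

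mt-Nd2, mt-Nd4 and mt-Nd5 encode the antiporter-like subunits that carry the proton channels of the membrane arm. mt-Nd2 (ENSMUSG00000064345, chrM:3914-4951, plus strand) was at 1774, 1583 and 1291 CPM in wild type and 1104, 1182 and 1126 CPM in Lingo3-/-. The mutant libraries were close together and all below the wild type ones. The log2 fold change was -0.45 ± 0.15 (SE), at 73.4% of wild type, and it also missed the threshold (edgeR adjusted p = 0.0626). A missed threshold does not show that mt-Nd1 and mt-Nd2 are at the same level in both genotypes.

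mt-Nd4 (ENSMUSG00000064363, chrM:10167-11544, plus strand) was at 2503, 1906 and 1648 CPM in wild type and 1273, 1193 and 1369 CPM in Lingo3-/-. Wild type replicate 1, labelled as washed with EDTA plus DTT, stood highest, as it did for every measured member. The groups did not overlap. mt-Nd4 fell by 0.66 ± 0.17 on the log2 scale (SE; edgeR adjusted p = 0.0227), to 63.3% of wild type. The call rests on most single libraries: the adjusted p was 0.0504 without wild type replicate 1 and 0.0573, 0.0825 and 0.0683 without Lingo3-/- replicates 1, 2 and 3. It was 0.0537 when libraries were scaled by their totals only.

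mt-Nd5 (ENSMUSG00000064367, chrM:11742-13565, plus strand) encodes the outermost of these subunits. It was at 2157, 1940.0 and 1628 CPM in wild type and 1243, 949 and 1207 CPM in Lingo3-/-. Lingo3-/- replicate 2 was the lowest library, and the groups did not overlap. mt-Nd5 fell by 0.75 ± 0.16 on the log2 scale (SE; edgeR adjusted p = 0.0104), to 59.4% of wild type.

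mt-Nd6 (ENSMUSG00000064368, chrM:13552-14070, minus strand) encodes a subunit of the region between ND1 and the antiporter-like subunits, as do mt-Nd3 and mt-Nd4l. Its level was 276, 271 and 241 CPM in wild type and 142, 137 and 139 CPM in Lingo3-/-. The libraries of each genotype lay close together, with a wide gap between the genotypes. mt-Nd6 fell by 0.91 ± 0.10 on the log2 scale (SE; edgeR adjusted p = 0.000785), to 53.1% of wild type. The kit marks strand, but the strand setting of the counting is not given in the sources used here. Reads in the 14 bases shared with mt-Nd5, or from RNA antisense to any member, can therefore not be assigned to a strand.

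**Figure D2:**
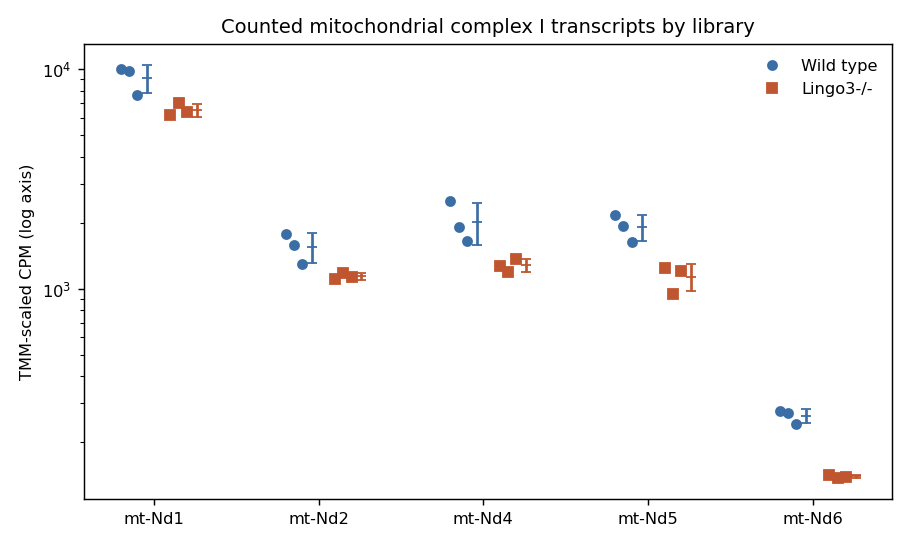
TMM-scaled CPM (log axis) of the 5 measured complex I transcripts in each library, with circles for wild type and squares for Lingo3-/-; bars give the mean ± SD of 3 libraries. In each of the 5 genes every mutant library lies below every wild type library, with the widest relative gap for mt-Nd6.

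In the authors' deposited table, made with DESeq2 from the same libraries, all 5 members are lower at an adjusted p under 0.05, where 6.72% of the listed genes are. The log2 fold changes in the authors' deposited table run from -0.43 for mt-Nd2 (adjusted p = 0.0118) to -0.90 for mt-Nd6 (adjusted p = 3.41e-12).

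The genotypes also differed in markers of other cells in the wash, and in a bulk sample fewer cells of a type and less RNA per cell cannot be told apart. Over all tested genes, 5.97% fell and 9.43% rose. Summed over 8 T cell markers, the level was 109 to 121 CPM in wild type and 34.2 to 65.8 CPM in Lingo3-/-, and 6 of the 8 fell. Of 6 B and plasma cell markers 2 fell, with sums of 20.6 to 50.6 and 12.8 to 16.2 CPM. Of 4 endothelial markers 2 were tested and both fell, with sums of 9.85 to 13.4 and 4.4 to 6.69 CPM. Fibroblast markers summed to 335 to 987 CPM and 225 to 463 CPM, and none of the 6 passed edgeR's test, with 3 lower at an unadjusted p under 0.05. Macrophage and dendritic cell markers summed to 78.2 to 94.8 and 57.9 to 205 CPM, with 1 of 6 higher and 1 lower, and 1 of the 4 tested of 5 smooth muscle markers fell, with sums of 10.9 to 13.5 and 9.47 to 11.04 CPM. Epithelial markers summed to 15585 to 16049 CPM in wild type and 16267 to 18366 CPM in Lingo3-/-, with 1 of 12 higher. No marker was at 0 in all libraries, and the part of these cells in the fall of the complex I transcripts was not tested.

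Before scaling, the members together made up 1.35% ± 0.181 (SD, n = 3) of a wild type library's gene counts, against 1.13% ± 0.0522 (SD, n = 3) in Lingo3-/-. These shares overlapped between genotypes and their difference did not pass a 2-sided exact permutation test (p = 0.2), whose smallest possible p with 3 against 3 libraries is 0.1. TMM factors ran from 0.856 to 0.948 in wild type and from 1.05 to 1.13 in Lingo3-/-, and all CPM values include them. Scaled by library totals only, mt-Nd5 and mt-Nd6 still fell, by 0.47 and 0.63 on the log2 scale (edgeR adjusted p = 0.0193 and 0.000508). On the same scaling mt-Nd4 was at -0.37, mt-Nd1 at -0.20 and mt-Nd2 at -0.16 (edgeR adjusted p = 0.0537, 0.320 and 0.375).

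Whether the members shifted as a group against the rest of the mitochondrial mRNA could not be decided by a test. With 3 against 3 libraries the exact permutation test cannot give a p under 0.1. The members' share of mitochondrial mRNA counts was 9.91% ± 0.641 in wild type and 10.7% ± 0.888 in Lingo3-/- (SD, n = 3). The groups overlapped (exact permutation p = 0.3). Leaving mt-Co1 out of the total, a choice made after the data were seen, gave 64.2% ± 1.72 and 62.0% ± 1.20 (SD, n = 3; exact permutation p = 0.2), which turns the direction of the difference. mt-Co1 alone made 84.6% ± 1.25 and 82.8% ± 1.41 (SD, n = 3). mt-Nd6 was the one member whose share did not overlap between genotypes, at 0.175% ± 0.00295 in wild type and 0.146% ± 0.0167 in Lingo3-/- (SD, n = 3). Its exact permutation p was 0.1, the smallest possible, and 0.5 after adjustment over 5 members. How often such a share does not overlap over all genes was not counted. Among ratios of 2 tested genes with a mean of at least 10 CPM, 43.6% of pairs did not overlap, so a share without overlap does not single out mt-Nd6.

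Ratios between 2 members do not depend on scaling. Of the 10 pairs, 3 had ratios that did not overlap between genotypes, where 43.6% of all pairs of tested genes with a mean of at least 10 CPM did not overlap. The log2 ratio of mt-Nd1 to mt-Nd6 was 5.12 ± 0.116 in wild type and 5.55 ± 0.123 in Lingo3-/- (SD, n = 3). That of mt-Nd2 to mt-Nd6 was 2.55 ± 0.132 and 3.03 ± 0.0764, and that of mt-Nd2 to mt-Nd5 was -0.30 ± 0.0279 and 0.02 ± 0.263 (SD, n = 3). Each of these 3 reached the smallest exact permutation p of 0.1 and an adjusted p of 0.333 over the 10 pairs. Since no pair could reach a p under 0.1 at this number of libraries, the test does not decide whether the fold changes of the members differ from each other.

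The other mitochondrial mRNAs had lower values too. Of the 6, 4 could be tested and 2 fell, where 5.97% of all tested genes fell. mt-Co1 fell by 0.67 ± 0.19 on the log2 scale (SE; edgeR adjusted p = 0.0357). mt-Co2, a cytochrome c oxidase subunit counted at only 6 to 35 reads per library, fell by 1.16 ± 0.32 (SE; edgeR adjusted p = 0.0323). mt-Cytb, the cytochrome b of complex III, was at -0.41 ± 0.18 on that scale (SE; adjusted p = 0.143 by edgeR) and mt-Co3 at -0.47 (edgeR adjusted p = 0.304). The pseudogene Gm28661 is identical to mt-Co2 over 681 bases and had 274 counts, against 108 for mt-Co2. Gm28437 is identical to mt-Co3 over 783 bases. Reads counted to mt-Co2 and mt-Co3 are therefore uncertain in origin, as for mt-Nd3, and so are their fold changes. With DESeq2 the adjusted p was 0.109 for mt-Co2, which ends its call, and 0.0421 for mt-Cytb, which then passes. The authors' deposited table likewise has an adjusted p of 0.102 for mt-Co2 and 0.0441 for mt-Cytb. Without a filter on low counts mt-Cytb also passed (edgeR adjusted p = 0.0498). The call of mt-Co2 was lost without any single library, that of mt-Co1 without wild type replicate 2 or any single Lingo3-/- library, and both with scaling by library totals, which left 0 of the 2. The mitochondrial rRNAs mt-Rnr1 and mt-Rnr2 fell by 0.55 ± 0.17 and 0.71 ± 0.20 on the log2 scale (SE; edgeR adjusted p = 0.0481 and 0.0313), in libraries made after depletion of ribosomal RNA. The call of mt-Rnr1 was lost without any single library, with adjusted p from 0.0659 to 0.165, and that of mt-Rnr2 without any single Lingo3-/- library, with adjusted p from 0.094 to 0.110.

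**Figure D3:**
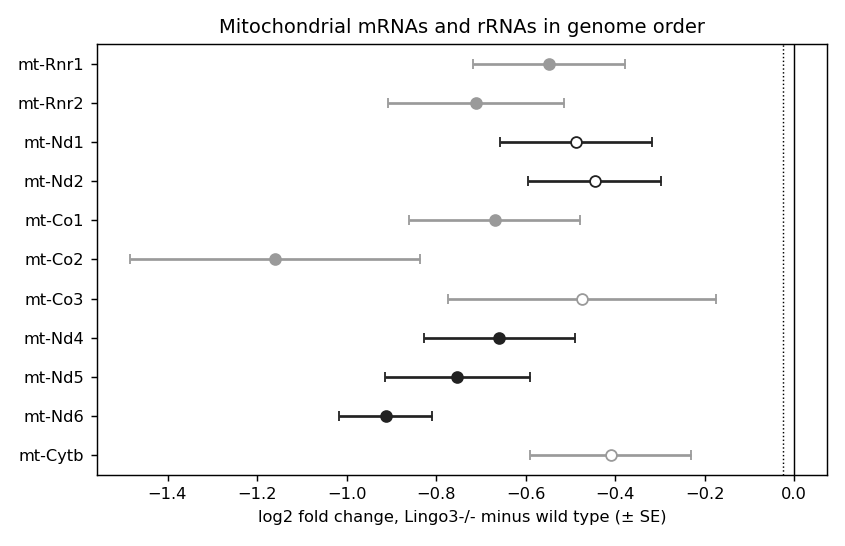
Log2 fold change, Lingo3-/- minus wild type, ± SE for the mitochondrial mRNAs and rRNAs that were tested, in genome order, with complex I genes in black. Filled points have an edgeR adjusted p under 0.05, and the dotted line is the median of all tested genes. All 11 lie below 0, and among the complex I genes mt-Nd6 is lowest at -0.91. The points of mt-Co2 and mt-Co3 rest on few reads of uncertain origin.

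The nuclear genes of complex I had the opposite balance. Of 37 listed, 36 were found and tested, and 10 rose (27.8%), where 9.43% of all tested genes rose. None fell with edgeR at an adjusted p under 0.05, 2 were lower at an unadjusted p under 0.05, and DESeq2 also called 0 lower. Their median log2 fold change was 0.17, against -0.66 for the mitochondrial subunits. Upper-quartile scaling gave 8 higher and 2 lower, and 5 were higher without Lingo3-/- replicate 3.

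Ndufv1, which binds NADH, was at 60.3, 56.5 and 53.6 CPM in wild type and 73.1, 81.4 and 96.5 CPM in Lingo3-/-. The groups did not overlap, and it rose by 0.56 on the log2 scale (edgeR adjusted p = 0.00786). Ndufs1, which holds iron-sulphur clusters, rose by 0.51 (edgeR adjusted p = 0.00667). Not every subunit that carries iron-sulphur clusters passed: Ndufs7 and Ndufv2, named after their values were seen, had log2 fold changes of 0.29 and 0.09 (edgeR adjusted p = 0.0740 and 0.640). Of the accessory subunits, Ndufa10 was at 45.9, 41.8 and 39.6 CPM in wild type and 61.3, 68.3 and 78.8 CPM in Lingo3-/-, and rose by 0.71 (edgeR adjusted p = 0.00260), the largest rise in the list. Ndufa13 rose by 0.52 (edgeR adjusted p = 0.00934). Per length, the median nuclear subunit was at 22.9 CPM per kb in wild type and 27.9 in Lingo3-/-, below each of the 5 measured mitochondrial subunits.

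Genes that act on complex I or on mitochondrial RNA were examined from lists whose counts were added after the data were seen. Of 16 assembly factors, 15 were tested and 3 rose: Ndufaf4 by 0.55, Ecsit by 0.50 and Acad9 by 0.35 on the log2 scale (edgeR adjusted p = 0.0138, 0.0231 and 0.0412). None fell at an unadjusted p under 0.05 either, and 9.43% of all tested genes rose. The count of rises was 1 without wild type replicate 3 and 0 without Lingo3-/- replicate 2 or 3. Of 20 genes for processing and stability of mitochondrial RNA, 6 rose, against the same 9.43% of all tested genes, and none fell, also at an unadjusted p under 0.05, with 2 and 3 rises without Lingo3-/- replicates 2 and 3. Grsf1, which binds G-rich mitochondrial RNA and is known to act on the mt-Nd6 transcript, was at 23.6, 24.1 and 20.1 CPM in wild type and 30.7, 37.2 and 36.9 CPM in Lingo3-/-. The groups did not overlap, and Grsf1 rose by 0.63 (edgeR adjusted p = 0.00466).

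Trmt10c and 1110008L16Rik (Prorp), subunits of the mitochondrial RNase P that frees tRNAs from the precursor, rose by 0.57 and 0.51 on the log2 scale (edgeR adjusted p = 0.0227 and 0.0166). Not every gene for this step passed. Hsd17b10, also a subunit of RNase P, and Elac2, both named after their values were seen, were at 0.33 and 0.36 (edgeR adjusted p = 0.110 and 0.0605). Pnpt1, an RNA-degrading enzyme, rose by 0.56 (edgeR adjusted p = 0.00881). Of 15 genes for maintenance and transcription of mitochondrial DNA, none rose, with 3 higher at an unadjusted p under 0.05 by edgeR, and 1 fell. Over all tested genes 9.43% rose and 5.97% fell, so 1 fall among 15 is near the general share. The gene that fell, Polg2, the accessory subunit of the mitochondrial DNA polymerase, changed by -0.64 (edgeR adjusted p = 0.0144). Its adjusted p was 0.115 with scaling by library totals only. The calls of Ndufaf4, Ecsit, Acad9, Trmt10c, 1110008L16Rik and Polg2 were each lost without Lingo3-/- replicate 3, and all of these but Polg2 were also lost without Lingo3-/- replicate 2. Without wild type replicate 3 the calls of Ecsit, Acad9, Trmt10c and Polg2 were lost, without wild type replicate 2 those of Acad9 and Polg2, and without Lingo3-/- replicate 1 that of Acad9.

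**Figure D4:**
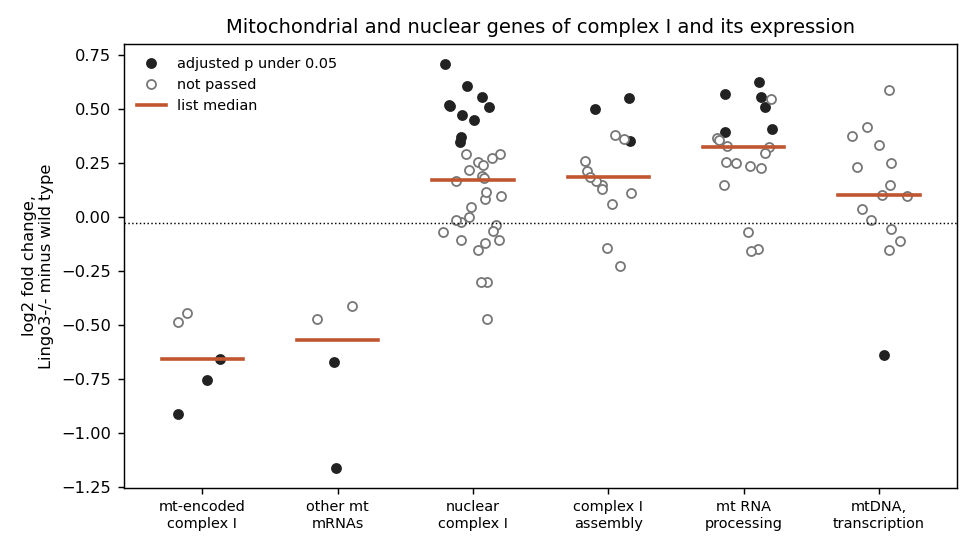
Log2 fold change, Lingo3-/- minus wild type, of each tested gene in 6 lists, with filled points for an edgeR adjusted p under 0.05, bars for list medians and a dotted line for the median of all tested genes. The mitochondrially encoded complex I genes and the other mitochondrial mRNAs lie below 0, and the median of the nuclear complex I genes is 0.17.

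Genes whose profile over the 6 libraries was among the most like the mean log2 CPM of the 5 measured members were taken from 8265 tested nuclear genes with a mean of at least 10 CPM. Pearson's r was 0.981 for Timp3, an inhibitor of matrix metalloproteinases, 0.970 for Pcolce, which promotes procollagen processing, 0.966 for Hspa12a and 0.963 for Bahd1. These are descriptions over 6 libraries that share the genotype difference and their depth.

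**Figure D5:**
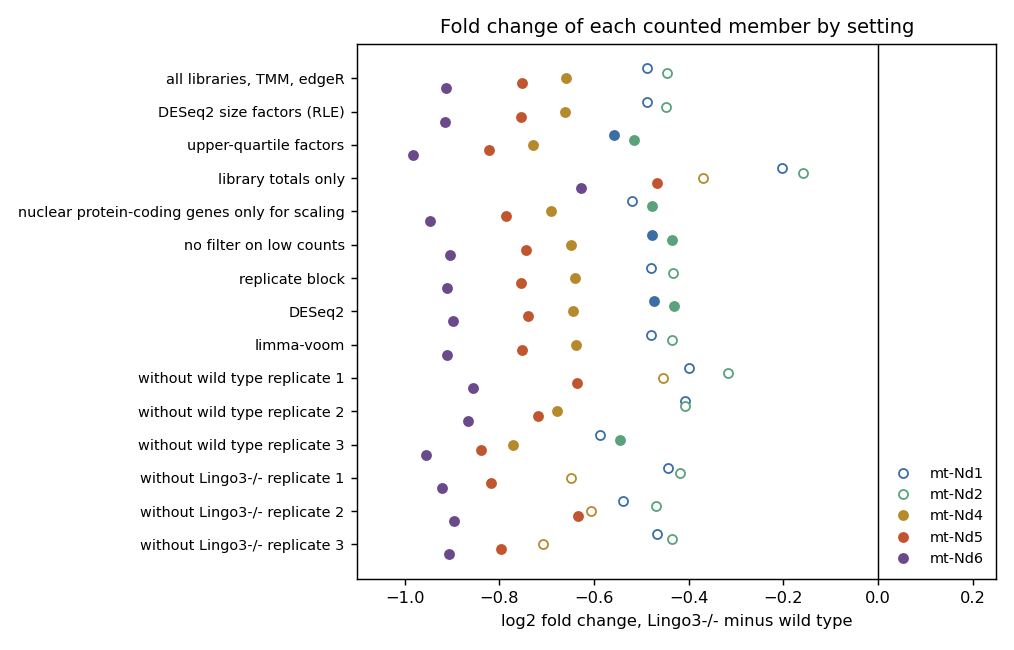
Log2 fold change, Lingo3-/- minus wild type, of the 5 measured complex I genes with all libraries and under 14 alternative settings. Filled points have an adjusted p under 0.05 in that setting, and open points do not (the key shows the state in the top row). Every point lies below 0, and mt-Nd5 and mt-Nd6 are filled in every row.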

How the data were processed

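Total RNA libraries were made with a stranded kit after ribosomal RNA depletion, per the labels. GRCm38, Trimmomatic 0.39, STAR, HTSeq and DESeq2 appear in the submitters' processing notes. For other versions, strand setting, read length and annotation release: not given in the sources used here. Raw whole-number counts per Ensembl gene were deposited by the authors. In a second deposited table the authors give normalized signal per library, log2 fold changes, a Wald score and p-values, per the file headers. The score and signal were not used.

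HTSeq summary lines, 53.6 to 60.1% of all reads per library, stayed out of library sizes. Genes were kept by filterByExpr (minimum count 10, total 15), scaled with TMM factors and tested for genotype with edgeR 4.0.16 (robust quasi-likelihood, 2-sided, Benjamini-Hochberg over 16856 genes, threshold 0.05) in R 4.3.3, beside DESeq2 1.42.0 and limma-voom (limma 3.58.1). SE is the absolute log2 fold change divided by the root of the F statistic. The code was tested on simulated counts. CPM per kb divides by exon length. Shares and ratios were compared by exact permutation.

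Sequences, coordinates and symbols came from GENCODE M21. Named genes were all members and other mitochondrial mRNAs and rRNAs, near-identical pseudogenes, up to 4 largest called changes per list and direction, core matrix arm subunits, and the genes of most similar profile; some of the genes this rule names are not reported here. Members and lists were chosen with earlier results of these data known. Alternatives were other scalings, no filter, other tools, a replicate block, and leaving out each library. Ndufb1 and Coa1 were not matched.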

Additional observations from a re-analysis of the deposited data

How the results depend on the processing

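Every measured complex I transcript kept a lower value in Lingo3-/- under all 14 alternatives, and mt-Nd5 and mt-Nd6 kept an adjusted p under 0.05 in each. Without wild type replicate 1, the library labelled EDTA plus DTT, the log2 fold changes of mt-Nd1, mt-Nd2 and mt-Nd4 were -0.40, -0.32 and -0.46. Those of mt-Nd5 and mt-Nd6 were -0.64 and -0.86, and all 5 were smaller in size than with all libraries. The part of the wash in this was not tested. The number of members called lower was 5 with upper-quartile factors, without a filter and with DESeq2, 4 with scaling on nuclear protein-coding genes, 2 with library totals only, and 2 to 4 when 1 library was left out. Over these alternatives, 2.31 to 8.10% of tested genes were called lower. Scaling by library totals only shifted the all-gene median by 0.28 (log2). That scaling left 0 other mitochondrial mRNAs lower and called 24 nuclear complex I subunits, 10 assembly factors and 17 RNA processing genes higher, 0 DNA maintenance genes lower and 5835 genes in all, against 2596, and Bahd1 turned to 0.044. Nuclear complex I subunits called lower were 2 with upper-quartile factors and 1 with nuclear scaling, without a filter and with the replicate block. Leaving out 1 library gave 0 to 1 other mitochondrial mRNAs lower, 5 to 14 nuclear subunits higher and 0 to 1 lower, 0 to 3 assembly factors and 2 to 8 RNA processing genes higher, 0 to 1 DNA maintenance genes lower, and 1124 to 2686 genes in all. The difference in the members' share was then -0.32 to -0.16 percentage points of gene counts and 0.37 to 1.25 of mitochondrial mRNA counts. The latter was -2.22 without mt-Co1 in the total. Causes were not tested, beyond there being fewer libraries in the fits that leave 1 out.

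Libraries with the same replicate number did not visibly deviate together (correlations of -0.0102, -0.117 and -0.103). Other combinations ran from -0.118 to 0.219. With 3 libraries per genotype these values cannot show whether the numbers pair the libraries, and the labels do not say. The fit with a replicate block called 2061 genes, 3 members lower and 1 other mitochondrial mRNA lower, with mt-Co2 at an adjusted p of 0.063.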

Other observations

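Among the tRNA genes on the strand of mt-Nd6, a set singled out after its values were seen, mt-Tp and mt-Tc had enough counts to be tested. mt-Tp, the proline tRNA, had 5136, 5573 and 5197 counts in wild type and 2687, 2679 and 1257 in Lingo3-/-, and fell by 0.83 ± 0.14 on the log2 scale (SE; edgeR adjusted p = 0.0033). mt-Tc, the cysteine tRNA, had 104, 193 and 135 counts in wild type and 75, 52 and 21 in Lingo3-/-. Scaled, it was at 4.86, 7.28 and 5.86 CPM in wild type and 3.86, 2.76 and 1.68 CPM in Lingo3-/-. It fell by 1.08 ± 0.27 on the log2 scale (SE; edgeR adjusted p = 0.0206). mt-Te, the glutamate tRNA next to mt-Nd6, had 1, 2 and 3 counts in wild type and 0 in each Lingo3-/- library, at or under the floor of 3 counts. Of the 37 mitochondrial genes, 16 had 0 counts in all libraries, mt-Nd4l among them.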
